A study of Mus musculus with 18 samples.

Results

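The 10 genes described here encode transporters that move bile acids, other organic anions and the phospholipid of bile across the membranes of liver cells. They are Slc10a1, Slco1a1, Slco1a4, Slco1b2 and Slco2b1, which take solutes up from blood, Abcb11, Abcb4 and Abcc2, which export into bile, Abcc3, which exports back into blood, and Slco2a1, a prostaglandin transporter. They were picked out by gene symbol, as 10 of the 54532 genes of the deposited table, by a rule that names the genes and sets no threshold on their values, though earlier results of these data were known when it was written. Liver RNA came from 18 male C57BL/6J mice, 6 in each of 3 groups, all of which were 6 weeks old at arrival and had fasted overnight before sampling. The normal control (NC) group ate a standard diet. The HFD group ate a high-fat diet for 14 weeks and then received saline with the diet continued, and the SZ-A group received SZ-A, the alkaloids of Ramulus Mori (mulberry twig), on the same high-fat diet. Treatment lasted 8 weeks by the deposited description and 6 weeks by the methods of the study, whose text leaves the dose and route of SZ-A in these animals unstated. The library NC6 is titled as a chow mouse, but its diet label reads high-fat diet, and it was kept in NC.

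Bile acids are made from cholesterol in hepatocytes, pumped into the bile canaliculus, reabsorbed in the ileum and returned to the liver in portal blood. Slc10a1 (NTCP) takes up conjugated bile acids together with sodium, and the Slco genes encode OATP proteins, which take up bile acids, bilirubin, steroid conjugates and drugs without it. On the canalicular side Abcb11 (BSEP) exports bile salts, Abcb4 (MDR2) moves phosphatidylcholine into bile, and Abcc2 (MRP2) exports conjugates such as bilirubin glucuronides and glutathione conjugates. Abcc3 (MRP3) sits on the blood side and returns conjugates to the sinusoid.

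RNA was measured by RNA-seq of poly-A RNA, and the values are FPKM, fragments per kilobase of gene, scaled for library size, so that levels can be set side by side between genes. Fragments on genes worked back from these values ranged from 17163191 to 20493907 per mouse. A member gene was read by 378 fragments (Slco1a4) to 36151 fragments (Slco1b2) in a mouse, and 10 of 10 members passed the filter of a mean of at least 1 FPKM over the 18 mice, as did 10216 genes in all. NC6 was nearest to the other NC mice over all genes (root mean square log2 distance 0.369, against 0.496 to HFD and 0.445 to SZ-A). NC5 lay farthest from its own group (0.589), and it was the lowest NC mouse for 8 of the 10 members. HFD5 was nearer to the SZ-A mean (0.396) than to its own (0.435), and SZ-A2 was nearer to the HFD mean (0.352 against 0.407). SZ-A5 was about as far from the HFD mean (0.503) as from its own (0.504). The mean of a mouse's own group left out that mouse. Each comparison was tested with limma on log2(FPKM + 0.1), and genes with an adjusted p under 0.05 (Benjamini-Hochberg over all genes tested) and a fold change over 1.2 are termed called. Nothing in the labels says that the mice of a group came from separate cages or litters, so the p-values measure the spread between these mice.

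The mean over all 18 mice was highest for Slco1b2 (298 FPKM) and Slc10a1 (236 FPKM). Abcc3 (66.2), Abcb11 (63.6), Abcc2 (57.5), Abcb4 (57.1) and Slco1a1 (46.1) followed, and their ranges within the groups overlapped for each pair of neighbours in this order. Slco2b1 had 24 FPKM, Slco1a4 12.5 FPKM and Slco2a1 3.30 FPKM. Slco1b2 and Slc10a1 did not overlap in HFD but did in NC and SZ-A, Slco1a1 and Slco2b1 overlapped in HFD alone, Slco2b1 and Slco1a4 in NC alone, and Slco1a4 and Slco2a1 in SZ-A alone. The 2 most abundant members are thus both uptake carriers of the blood side, and the least abundant is the prostaglandin transporter.

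**Figure D1:**
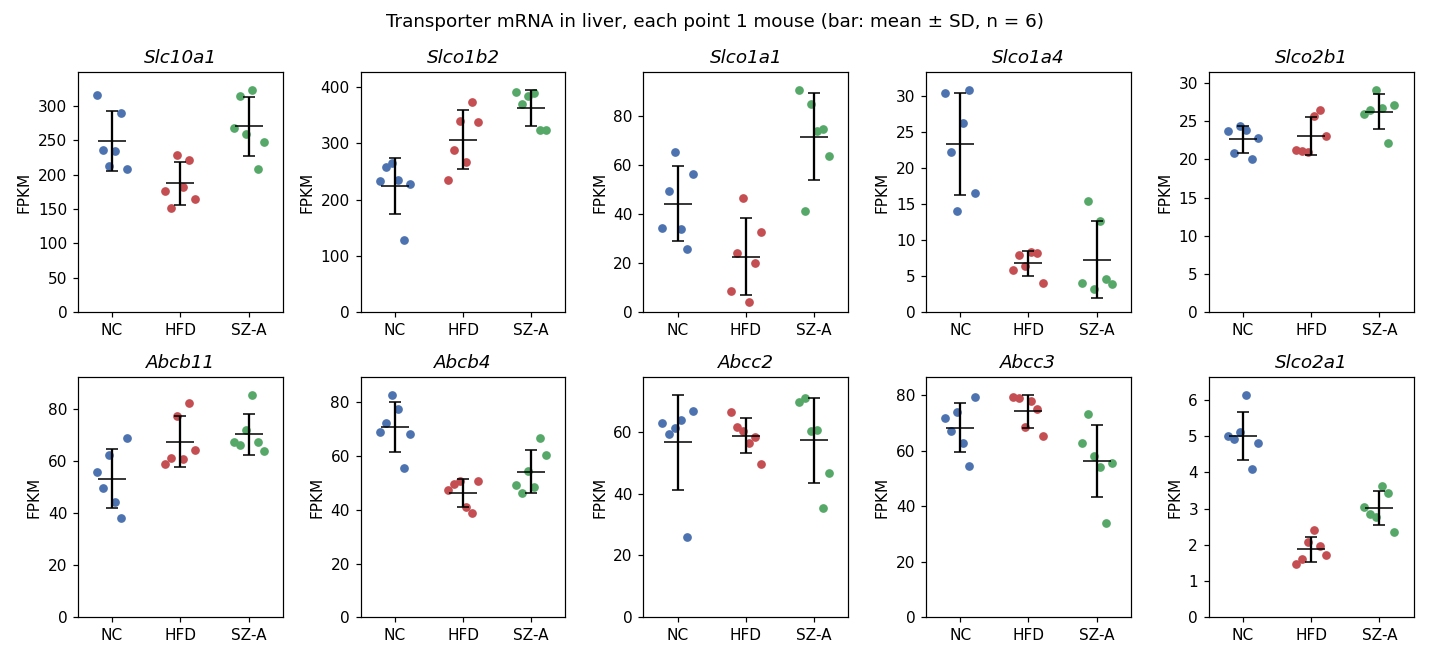
FPKM of the 10 transporter genes on linear axes that start at 0, with a point for each of the 6 NC, 6 HFD and 6 SZ-A mice and a bar for the mean ± SD. Slco2a1, Slco1a4 and Abcb4 had every HFD mouse below every NC mouse, and Slco1b2 had every SZ-A mouse above every NC mouse.

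Between HFD and NC, 4 of the 10 transporters fell (Slco2a1, Slco1a4, Abcb4 and Slc10a1) and 0 rose. Over all genes tested 20.2% were called, 10.7% as higher and 9.49% as lower. The median log2 fold change of the members was -0.19, beside -0.03 over all genes. In 3 members the HFD and NC groups did not overlap, which held for 10.5% of all genes. Which members were called depended on the scaling between mice, while no member's log2 fold change turned sign with the scaling in this comparison. Voom on library totals called 2 members higher in HFD (Slco1b2 and Abcb11) and 3 lower (Slco1a4, Abcb4 and Slco2a1). Of the 10216 genes, 2010 were then higher and 409 lower. With median-ratio library sizes, voom called 0 members higher and 4 lower, the same 4 as in the main fit. Of all genes, 1204 were then higher and 807 lower. FPKM rescaled by median-ratio factors gave 0 members higher and 3 lower (Slco1a4, Abcb4 and Slco2a1). Between SZ-A and HFD, 0 of the 10 were called by limma, where 0.147% of all genes were (0.0783% higher and 0.0685% lower). At an unadjusted p under 0.05 there were 6 members, 5 higher (Slco2a1, Slco1a1, Slc10a1, Slco1b2 and Slco2b1) and 1 lower (Abcc3) with SZ-A, beside 14.8% of all genes, 8.74% higher and 6.09% lower. The members' median was 0.20, against 0.03 over all genes, and the groups overlapped in all 10 members, whereas 1.28% of all genes did not overlap. Voom on the worked-back fragments called 1 member there, Slco2a1, and limma with sample weights called 3, Slco2a1, Slc10a1 and Slco1a1. Between SZ-A and NC, 1 transporter rose (Slco1b2) and 3 fell (Slco1a4, Slco2a1 and Abcb4), beside 9.6% of all genes, 5.31% higher and 4.3% lower. The median was 0.08 for members and -0.01 for all genes, and 2 members did not overlap, Slco1b2 and Slco2a1, beside 5.5% of all genes. The 3 comparisons share mice, each group standing in 2 of them, so they are not independent.

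**Figure D2:**
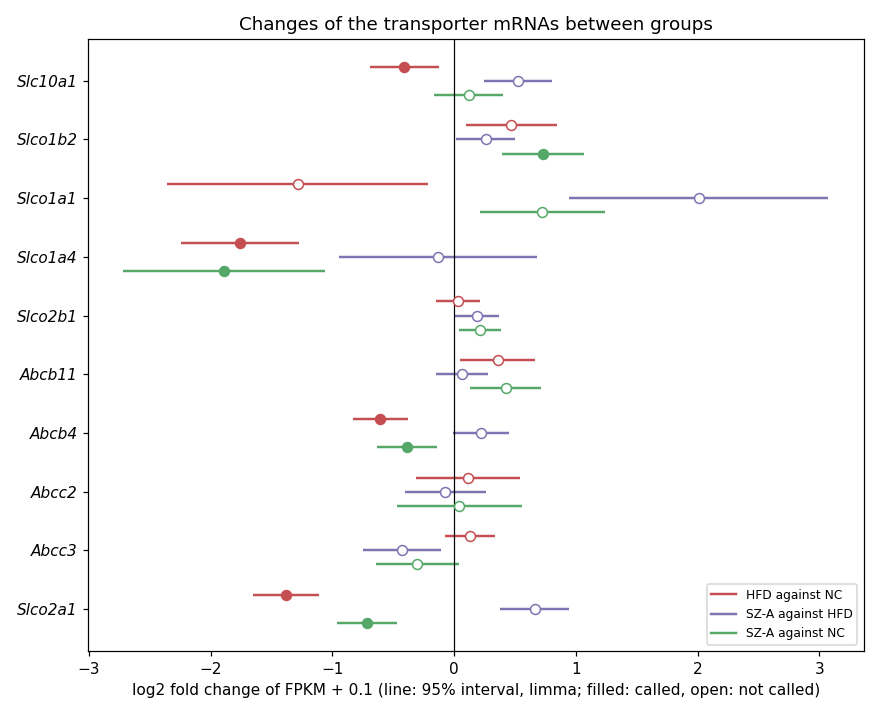
Log2 fold change of FPKM + 0.1 for each transporter in the 3 comparisons, with limma's 95% interval as a line, a filled point where the gene was called and an open point where it was not. The open points of SZ-A against HFD run from -0.43 for Abcc3 to 2.01 for Slco1a1.

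The makeup of the tissue was read from lists of cell type markers. Among the hepatocyte markers Alb was highest, with a mean of 29450 FPKM in NC, 21470 in HFD mice and 24030 in SZ-A mice. Apoa1 came next, at 8967, 4752 and 8112 FPKM, so Alb and Apoa1 weigh most in the hepatocyte sum. Summed hepatocyte markers (9 of the 10 listed symbols were in the table) had a lowest, median and highest value of 42560, 46660 and 63420 FPKM in NC, of 29770, 36030 and 48210 in HFD mice and of 37300, 40260 and 59940 in SZ-A mice. Macrophage markers summed to 133, 187 and 253 FPKM in NC, to 199, 294 and 384 in HFD mice and to 218, 241 and 293 in SZ-A mice. Stellate cell markers summed to 41.5, 47.7 and 59.2 FPKM in NC, to 48.3, 70.6 and 89.5 in HFD mice and to 45.3, 57.8 and 59.6 in SZ-A mice. Mean levels of 9 of 9 macrophage and 7 of 7 stellate cell markers were thus higher in HFD than in NC, while those of 4 of 9 hepatocyte markers were. Cholangiocyte markers summed to 15.1 to 43.7 FPKM in NC, 24.6 to 48.6 in HFD mice and 19.3 to 34.6 in SZ-A mice, and 4 of their 7 genes had a mean under 1 FPKM, among them Epcam. All 7 lymphocyte and all 4 adipocyte markers had a mean under 1 FPKM. The part of these shifts in the transporter results was not tested, and in whole liver fewer cells of a type and less RNA per cell cannot be told apart.

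Slc10a1 (NTCP; ENSMUSG00000021135, chromosome 12, 80953183 to 80968705 of GRCm38) is the main sodium-coupled bile acid carrier of hepatocytes. Its lowest, median and highest values were 208, 235 and 317 FPKM in NC, 151, 180 and 229 in HFD mice and 208, 264 and 324 in SZ-A mice. HFD mice lay low, with 4 of the 6 below every mouse of the NC and SZ-A groups, while the NC and SZ-A ranges nearly coincided. The mean was 250 ± 43.6 FPKM in NC, 188 ± 31.3 in HFD mice and 271 ± 43.4 in SZ-A mice (mean ± SD, n = 6 each). Slc10a1 fell in HFD compared with NC by 0.41 on the log2 scale (standard error, SE, 0.133, adjusted p = 0.0429). That call was near its limit and was lost without any 1 of 8 mice, with adjusted p = 0.0828 without NC1, 0.0635 without NC2, 0.0627 without NC4, 0.0711 without NC5, 0.0795 without HFD1, 0.0941 without HFD2, 0.0759 without HFD4 and 0.0848 without HFD6. When all mice were scaled to the same total FPKM, the log2 fold change was -0.22 (adjusted p = 0.178), and the call was lost in 13 of 25 alternatives in all. The SZ-A mean was 1.44-fold the HFD mean on the fitted scale, a log2 fold change of 0.53 (95% interval 0.25 to 0.81, adjusted p = 0.1), which did not pass the threshold. Compared with NC the SZ-A group differed by 0.12 (95% interval -0.17 to 0.40, adjusted p = 0.632).

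Slco1a1 (OATP1A1; ENSMUSG00000041698, chromosome 6, 141907282 to 141946962) takes up bile acids and steroid sulfates and is known for its high level in male mouse liver. Its lowest, median and highest values were 25.8, 41.7 and 65.3 FPKM in NC, 4.0, 22 and 46.4 in HFD mice and 41.2, 74.3 and 90.5 in SZ-A mice. Values varied widely among HFD mice, from HFD4 (4.0 FPKM) and HFD1 (8.63 FPKM) at the low end to HFD3 (46.4 FPKM). HFD3 was the 1 HFD mouse that reached into the SZ-A range, and SZ-A2 (41.2 FPKM) was the 1 SZ-A mouse that lay among the HFD values. The mean was 44.1 ± 15.2 FPKM in NC, 22.6 ± 15.6 in HFD mice and 71.4 ± 17.5 in SZ-A mice (mean ± SD, n = 6 each). For SZ-A against HFD the log2 fold change of 2.01 was the largest of the 10 members in that comparison (95% interval 0.94 to 3.07, unadjusted p = 0.00132), but with an adjusted p of 0.1 in limma it was not called. The HFD group had a log2 fold change of -1.28 against NC (SE 0.497, adjusted p = 0.0826), and was called without HFD3 (-1.57, adjusted p = 0.0365), with all 18 mice in one fit (adjusted p = 0.0415) and with sample weights (-1.50, adjusted p = 0.0388). Against NC the SZ-A mice had a log2 fold change of 0.72 (SE 0.238, adjusted p = 0.0724), which passed without NC3 (0.85, adjusted p = 0.0446) and without SZ-A2 (0.87, adjusted p = 0.0299).

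Slco1a4 (OATP1A4; ENSMUSG00000030237, chromosome 6, 141805440 to 141856199) carries bile acids and cardiac glycosides, in hepatocytes and at the blood-brain barrier. Its lowest, median and highest values were 14.0, 24.3 and 30.9 FPKM in NC, 4.01, 7.17 and 8.30 in HFD mice and 3.23, 4.30 and 15.5 in SZ-A mice. Every HFD mouse lay below every NC mouse. The SZ-A mice were split, with SZ-A2 (15.5 FPKM) and SZ-A4 (12.7 FPKM) above all HFD mice, and the other 4 at 3.23 to 4.56 FPKM. Slco1a4 fell in HFD compared with NC by 1.76 on the log2 scale, 3.38-fold (SE 0.225, adjusted p = 0.000253). It was also lower in SZ-A than in NC, with a log2 fold change of -1.89 (SE 0.383, adjusted p = 0.00925). Both calls held in each of the 25 alternatives, with log2 fold changes of -1.89 to -1.57 for HFD and -2.16 to -1.72 for SZ-A. Between SZ-A and HFD the log2 fold change was -0.13, with a wide 95% interval of -0.95 to 0.68 (adjusted p = 0.901), and it was 0.04 without SZ-A3.

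Slco1b2 (OATP1B2; ENSMUSG00000030236, chromosome 6, 141629518 to 141686646) is the liver-specific carrier of bilirubin, unconjugated bile acids and statins, and was the most abundant member by the mean over all 18 mice. In NC its mean of 225 FPKM was below that of Slc10a1 (250 FPKM). Its lowest, median and highest values were 128, 234 and 266 FPKM in NC, 234, 313 and 373 in HFD mice and 323, 377 and 392 in SZ-A mice. All SZ-A mice lay above all NC mice, and the HFD mice lay in between and overlapped both. The NC group held 1 low mouse, NC5 (128 FPKM), with the other 5 at 228 to 266 FPKM. Slco1b2 rose in SZ-A compared with NC by a log2 fold change of 0.73, or 1.66-fold (SE 0.156, adjusted p = 0.0119), and was called in all 25 alternatives (0.57 to 0.78). The HFD mice had a log2 fold change of 0.47 against NC (95% interval 0.09 to 0.84, adjusted p = 0.0708), which was called at 0.66 (adjusted p = 0.0212) when all mice were scaled to the same total FPKM, at 0.63 (adjusted p = 0.0185) with voom on library totals and at an adjusted p of 0.0323 with all 18 mice in one fit. Between SZ-A and HFD the log2 fold change was 0.26 (95% interval 0.01 to 0.50, adjusted p = 0.314).

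Slco2b1 (OATP2B1; ENSMUSG00000030737, chromosome 7, 99657804 to 99711340) takes up steroid sulfates and drugs. Its lowest, median and highest values were 20.1, 23.2 and 24.4 FPKM in NC, 21.0, 22.1 and 26.5 in HFD mice and 22.1, 26.6 and 29.1 in SZ-A mice. The 3 groups overlapped, and 5 of the 6 SZ-A mice lay above every NC mouse. Slco2b1 was called in none of the 3 limma comparisons. Its log2 fold change was 0.03 for HFD against NC (95% interval -0.15 to 0.21, adjusted p = 0.843), 0.18 for SZ-A against HFD (0.0041 to 0.37, adjusted p = 0.326) and 0.21 for SZ-A against NC (0.04 to 0.38, adjusted p = 0.109).

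Slco1b2, Slco1a4 and Slco1a1 are neighbours on chromosome 6, within 317.4 kb from 141629518 to 141946962. Slco1b2 is read on the plus strand and the other two on the minus strand. The 3 neighbours had different orders of the group means, which were lowest in NC for Slco1b2, highest in NC for Slco1a4 and lowest in HFD for Slco1a1. Between Slco1a4 and Slco1a1 lies the lincRNA Gm30784 (141866358 to 141875220, plus strand), which is not a member and was picked out after its values were seen. Gm30784 overlaps neither gene and had 8.49 FPKM in NC (4.69 to 16.6), 1.95 in HFD (1.43 to 2.41) and 3.02 in SZ-A mice (1.98 to 4.53). It fell in HFD compared with NC by 1.98 on the log2 scale (SE 0.236, adjusted p = 0.000173) and was lower in SZ-A than in NC (-1.40, adjusted p = 0.00681). Like Slco1a4, it was not called between SZ-A and HFD (0.57, adjusted p = 0.185). The cluster's other Slco genes, Slco1a5 and Slco1a6, stayed under 0.04 FPKM in every mouse. Slco1a1 and Slco1a4 are similar in sequence, and how fragments that match both were counted is not given in the sources used here.

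**Figure D3:**
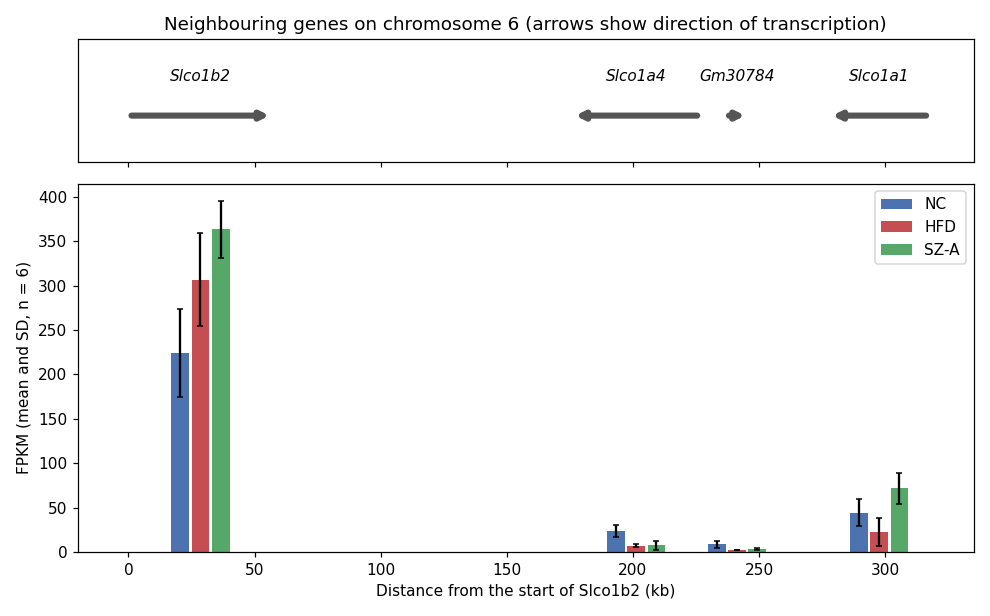
Position and direction of the 3 neighbouring Slco genes and of Gm30784 as the distance from the start of Slco1b2 in kb (top), and their mean FPKM with the SD over 6 mice per group as bars on a linear axis from 0 (bottom). The Slco1b2 bars stand at 225 FPKM in NC and 363 FPKM in SZ-A, the means of Slco1a4 and Gm30784 are highest in NC, and that of Slco1a1 is lowest in HFD.

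The promoters of these 3 neighbours are shown because the genes lie together but had different group patterns. The windows are from RefSeq on GRCm38.p6 and run from 250 bases before to 50 bases after the transcription start, on the strand of the gene. Of the 10 members 9 matched a window, all but Abcc3. Capitals mark the nuclear receptor half-site AGGTCA, or TGACCT on the other strand, and the HNF1 half-site GTTAAT on either strand. Slco1b2 lies at chr6:141629268-141629567 (plus strand), Slco1a4 at chr6:141856171-141856470 (minus strand) and Slco1a1 at chr6:141946913-141947212 (minus strand).
Slco1b2: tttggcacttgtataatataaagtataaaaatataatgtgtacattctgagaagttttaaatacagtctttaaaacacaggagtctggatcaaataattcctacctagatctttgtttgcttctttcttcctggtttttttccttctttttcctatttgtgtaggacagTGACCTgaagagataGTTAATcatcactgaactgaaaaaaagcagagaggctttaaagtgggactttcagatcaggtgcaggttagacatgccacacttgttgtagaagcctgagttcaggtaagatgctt
Slco1a4: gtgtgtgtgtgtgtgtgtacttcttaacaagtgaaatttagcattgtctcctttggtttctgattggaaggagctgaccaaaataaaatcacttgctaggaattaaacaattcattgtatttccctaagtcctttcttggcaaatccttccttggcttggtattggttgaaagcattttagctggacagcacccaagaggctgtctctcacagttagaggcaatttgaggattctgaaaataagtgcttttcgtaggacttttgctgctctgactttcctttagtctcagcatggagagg
Slco1a1: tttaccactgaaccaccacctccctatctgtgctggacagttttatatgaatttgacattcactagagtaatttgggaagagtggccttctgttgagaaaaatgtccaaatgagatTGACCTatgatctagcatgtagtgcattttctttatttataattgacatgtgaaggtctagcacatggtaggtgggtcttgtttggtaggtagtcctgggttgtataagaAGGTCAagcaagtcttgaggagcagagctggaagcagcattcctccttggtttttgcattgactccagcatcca

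In the Slco1b2 window the half-site TGACCT stood at -81 and GTTAAT at -66 relative to the start. The Slco1a1 window held AGGTCA at -24 and TGACCT at -134, and the Slco1a4 window held neither motif. Over 32851 promoter windows of the same length, 16.3% held AGGTCA and 7.1% held GTTAAT on either strand. A window with AGGTCA was found for 5 members (Slc10a1, Slco1a1, Slco1b2, Abcb11 and Abcc2) and one with GTTAAT for Slco1b2. The STAT motif TTCNNNGAA was in 4 of the 12, of 3 members (Slc10a1, Slco1b2 and Slco2b1), and in 8.3% of all windows. The antioxidant response core TGACNNNGC was in 1 of the 12, that of Abcc2, and in 12.4% of all. These matches describe the letters of the windows and do not show binding.

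Abcb11 (BSEP; ENSMUSG00000027048, chromosome 2, 69238282 to 69342616), the bile salt export pump, had lowest, median and highest values of 38.2, 52.7 and 68.8 FPKM in NC, 59.0, 62.7 and 82.0 in HFD mice and 63.8, 67.3 and 85.3 in SZ-A mice. Most NC mice lay low, and NC6 (68.8 FPKM) and NC3 (62.4 FPKM) were the NC mice inside the HFD range. The mean was 53.2 ± 11.4 FPKM in NC, 67.4 ± 9.73 in HFD mice and 70.3 ± 7.83 in SZ-A mice (mean ± SD, n = 6 each). The log2 fold change was 0.36 for HFD against NC (95% interval 0.05 to 0.66, adjusted p = 0.0898) and 0.42 for SZ-A against NC (0.13 to 0.71, adjusted p = 0.0646), and neither was called. Without NC6, the mouse whose diet label disagrees with its title, both were called, at 0.44 (adjusted p = 0.0384) and 0.50 (adjusted p = 0.028). Abcb11 was also called for HFD against NC when all mice were scaled to the same total FPKM (0.55, adjusted p = 0.0243) or tested by voom on library totals (0.51, adjusted p = 0.0192), and for SZ-A against NC with all 18 mice in one fit (adjusted p = 0.0388) or with sample weights (0.37, adjusted p = 0.0398). SZ-A against HFD gave a log2 fold change of 0.06 (95% interval -0.15 to 0.28, adjusted p = 0.81), and of -0.11 when all mice were scaled to the same total FPKM.

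Abcb4 (MDR2; ENSMUSG00000042476, chromosome 5, 8893717 to 8959231), the phosphatidylcholine floppase of the canaliculus, had lowest, median and highest values of 55.7, 70.5 and 82.6 FPKM in NC, 38.7, 48.5 and 50.6 in HFD mice and 46.1, 51.7 and 66.8 in SZ-A mice. No HFD mouse reached the lowest NC mouse, NC5. The SZ-A mice overlapped both groups, with SZ-A5 (66.8 FPKM) and SZ-A6 (60.2 FPKM) in the NC range. Abcb4 fell in HFD compared with NC by 0.61 on the log2 scale, 1.52-fold (SE 0.105, adjusted p = 0.00159), in all 25 alternatives (-0.67 to -0.42). It was thus lower in HFD mice while Abcb11, its neighbour in function, had a higher mean there than in NC. Against NC the SZ-A group had a log2 fold change of -0.39 (SE 0.113, adjusted p = 0.0473). This second call was lost without most single mice, with adjusted p = 0.0745 without NC1, 0.083 without NC2, 0.0967 without NC3, 0.0941 without NC4, 0.0645 without NC6, 0.0951 without SZ-A1, 0.0934 without SZ-A2, 0.0887 without SZ-A3, 0.0905 without SZ-A4 and 0.0595 without SZ-A6, and in 15 of 25 alternatives in all. Between SZ-A and HFD the log2 fold change was 0.22 (95% interval -0.01 to 0.45, adjusted p = 0.355).

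Abcc2 (MRP2; ENSMUSG00000025194, chromosome 19, 43782192 to 43840740), the canalicular exporter of conjugates, had lowest, median and highest values of 25.8, 62.0 and 66.8 FPKM in NC, 49.6, 59.3 and 66.2 in HFD mice and 35.3, 60.4 and 70.8 in SZ-A mice. The medians lay close together, and the low ends were set by single mice, NC5 (25.8 FPKM) in NC and SZ-A5 (35.3 FPKM) and SZ-A6 (46.8 FPKM) in SZ-A. Abcc2 was not called in any of the 3 comparisons, with log2 fold changes of 0.11 for HFD against NC (95% interval -0.32 to 0.54, adjusted p = 0.725), -0.07 for SZ-A against HFD (-0.40 to 0.26, adjusted p = 0.871) and 0.04 for SZ-A against NC (-0.47 to 0.55, adjusted p = 0.94). Without NC5 the value for HFD against NC was -0.10 and that for SZ-A against NC was -0.17.

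Abcc3 (MRP3; ENSMUSG00000020865, chromosome 11, 94343295 to 94392997), which returns glucuronides and bile acids to blood, had lowest, median and highest values of 54.7, 69.3 and 79.5 FPKM in NC, 65.2, 76.4 and 79.5 in HFD mice and 33.9, 56.9 and 73.3 in SZ-A mice. Its mean was lowest in the SZ-A group, at 56.3 ± 13 FPKM, against 68.2 ± 8.83 in NC and 74.2 ± 5.90 in HFD (mean ± SD, n = 6 each). Of the SZ-A mice 5 lay below every HFD mouse, and SZ-A2 (73.3 FPKM) lay among them. The log2 fold change between SZ-A and HFD was -0.43 (95% interval -0.75 to -0.11, unadjusted p = 0.0121), with an adjusted p of 0.2, and it was not called in any of the 25 alternatives. Against NC, HFD mice had a log2 fold change of 0.13 (95% interval -0.08 to 0.33, adjusted p = 0.373) and SZ-A mice one of -0.30 (-0.64 to 0.04, adjusted p = 0.248).

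Slco2a1 (the prostaglandin transporter PGT; ENSMUSG00000032548, chromosome 9, 102988712 to 103096002) takes up prostaglandins for their breakdown and is known from endothelial cells. Its lowest, median and highest values were 4.08, 4.96 and 6.13 FPKM in NC, 1.46, 1.83 and 2.42 in HFD mice and 2.36, 2.94 and 3.61 in SZ-A mice, read by 418 to 1683 fragments per mouse. The NC mice lay above all mice of the other groups, and of the SZ-A mice 5 lay above every HFD mouse, with SZ-A6 (2.36 FPKM) just under HFD4 (2.42 FPKM). The mean was 5.01 ± 0.662 FPKM in NC, 1.88 ± 0.350 in HFD mice and 3.01 ± 0.458 in SZ-A mice (mean ± SD, n = 6 each). Slco2a1 fell in HFD compared with NC by 1.38 on the log2 scale, 2.6-fold (SE 0.125, adjusted p = 2.78e-05), and was the 16th of 10216 genes by p there. It was lower in SZ-A than in NC by a log2 fold change of -0.72 (SE 0.114, adjusted p = 0.00284). Both calls held in all 24 alternatives that could test the gene. The log2 fold change between SZ-A and HFD was 0.66 (95% interval 0.38 to 0.94, unadjusted p = 0.000227), and its adjusted p was 0.0693 in the limma fit and 0.0325 to 0.176 over the 24 alternatives.

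**Figure D4:**
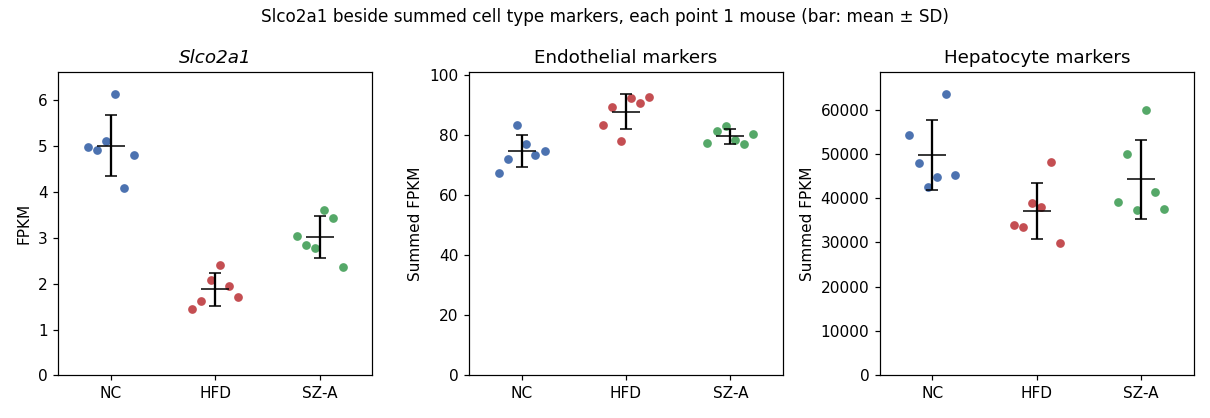
FPKM of Slco2a1 (left) beside the summed FPKM of the endothelial (middle) and hepatocyte markers (right), with a point for each mouse, a bar for the mean ± SD (n = 6 per group) and axes from 0. Slco2a1 was lowest in HFD mice (1.46 to 2.42 FPKM), and the median endothelial sum was highest there (78.1 to 92.9 FPKM).

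Endothelial markers summed to a lowest, median and highest value of 67.4, 74.2 and 83.6 FPKM in NC, 78.1, 90.1 and 92.9 in HFD mice and 77.1, 79.5 and 83.2 in SZ-A mice. Of the 9 endothelial genes 8 had a higher mean in HFD than in NC, and 3 had a higher mean in SZ-A than in HFD. Among the 8 that were tested, Eng and Lyve1 rose in HFD compared with NC, and 0 fell. Pecam1, a defining endothelial gene, had 4.09 ± 0.435 FPKM in NC, 4.94 ± 0.549 in HFD mice and 4.39 ± 0.737 in SZ-A mice (mean ± SD, n = 6 each), and Stab2, a gene of sinusoidal endothelium, 6.69 ± 1.01, 7.63 ± 0.935 and 7.65 ± 0.683. The part of endothelial cell number in the level of Slco2a1 was not tested.

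Among other bile acid and sterol transporters, 6 of 8 listed genes were tested, and 2 rose and 0 fell in HFD compared with NC. Abcg5, a canalicular sterol exporter, went from 21.2 ± 4.63 to 36.3 ± 13.2 FPKM (mean ± SD, n = 6 each; log2 fold change 0.73, adjusted p = 0.0224). Slc10a2, the sodium-coupled bile acid carrier of ileum and cholangiocytes, went from 2.57 ± 0.806 to 7.83 ± 6.22 FPKM, with a spread among HFD mice close to its mean (1.27, adjusted p = 0.0468). The list's median was 0.36, beside -0.03 over all genes. Of all genes tested, 10.7% were called higher in HFD than in NC and 9.49% lower. Between SZ-A and NC the shares were 5.31% higher and 4.3% lower. Calls of the lists here and below were not repeated under the alternatives. Slc51a and Slc51b, the subunits of the blood-side bile acid exporter OST, were below the filter, at up to 0.0817 and 1.07 FPKM. Of 8 other Abc exporters 4 were tested, and 1 rose in HFD, the drug pump Abcb1a, by 1.78 on the log2 scale (0.372 ± 0.121 to 1.63 ± 0.795 FPKM, adjusted p = 0.0012), with a list median of 0.32. All 7 other Slco genes, among them Slco3a1, were under the filter.

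Of the organic ion transporters 9 of 10 were tested, and 3 rose and 0 fell in HFD compared with NC. Slc22a7 (OAT2), an organic anion carrier, had 4.35 ± 1.64 FPKM in NC, 17.1 ± 7.33 in HFD mice and 28.9 ± 13.6 in SZ-A mice (log2 fold change 1.93, adjusted p = 0.00126 for HFD against NC and 2.66, adjusted p = 0.00121 for SZ-A against NC). Slc22a23 also rose in HFD (0.37, adjusted p = 0.0255), and Slc22a5, the carnitine carrier, was lower in SZ-A than in NC (-0.45, adjusted p = 0.0432). The organic ion list had a median of 0.26 for HFD against NC and of 0.45 for SZ-A against NC.

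Of 10 canalicular scaffold and traffic genes, 3 rose in HFD compared with NC. They were Slc9a3r1 (NHERF1, a PDZ scaffold; 65.4 ± 17.9 to 105 ± 20.9 FPKM, 0.71 on the log2 scale, adjusted p = 0.019), Msn (0.82, adjusted p = 0.00771) and Ezr (0.54, adjusted p = 0.0258), which link membranes to actin. In SZ-A compared with NC, 2 were higher, Slc9a3r1 (0.87, adjusted p = 0.0161) and Pdzk1 (0.44, adjusted p = 0.0403), another PDZ scaffold. The median of this list was 0.10 for HFD against NC and 0.15 for SZ-A against NC. Rdx, also on it, was not called between HFD and NC (0.11, adjusted p = 0.538). It had 44.3 ± 7.11 FPKM in NC and 47.4 ± 4.22 in HFD mice (mean ± SD, n = 6 each). Msn had 4.43 ± 1.21 and 7.64 ± 0.832 FPKM there, and Ezr 1.19 ± 0.287 and 1.75 ± 0.207. The cell types behind these levels were not tested. Of 21 tested regulators 3 rose in HFD, the growth hormone receptor Ghr (0.66, adjusted p = 0.0408), Stat5a (0.68, adjusted p = 0.0199) and Nr1i3, the receptor CAR (0.38, adjusted p = 0.0326), and 0 fell, with a list median of 0.13. Of all genes 10.7% were called higher there. The lowest NC value of Ghr was that of NC5 (17.2 FPKM, with an NC median of 36.5). Rara (0.50, adjusted p = 0.0204) and Nr1i3 (0.69, adjusted p = 0.0274) were higher in SZ-A than in NC. The bile acid receptor FXR (Nr1h4) was not called, with 46.0 ± 7.92 FPKM in NC, 50.1 ± 6.08 in HFD mice and 51.8 ± 3.05 in SZ-A mice. Its target Nr0b2 (SHP) was not called either and varied widely in NC, from 5.73 to 75.4 FPKM.

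Among 7 genes of bile acid synthesis, Cyp8b1, the 12-hydroxylase that sets the share of cholic acid, fell in HFD compared with NC by 1.71 on the log2 scale (532 ± 64.4 to 172 ± 66.4 FPKM, adjusted p = 0.00025). It was also lower in SZ-A than in NC (213 ± 16.4 FPKM, -1.31, adjusted p = 2.19e-05). Cyp7a1, the rate-limiting enzyme of the classic pathway (0.80, adjusted p = 0.0428), and Cyp2c70, which makes muricholic acids in mice (1.55, adjusted p = 0.0305), rose in HFD, and the median of the list was -0.19. Cyp2c70 was also higher in SZ-A than in NC (1.70, adjusted p = 0.0311). Between SZ-A and HFD, 0 genes of these transporter, scaffold, regulator and synthesis lists were called by limma. At an unadjusted p under 0.05 there were 1 of 9 organic ion transporters, 2 of 10 scaffold genes, 3 of 21 regulators and 2 of 7 synthesis genes. There were 0 of 6 other bile acid transporters and 0 of 4 other Abc exporters. Over all genes tested the share was 14.8%.

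Whether the transporters varied together from mouse to mouse was asked after the group means had been subtracted, over all 18 mice. Of 45 pairs of members, 1 passed a permutation test within groups with 100000 permutations (two-sided, Benjamini-Hochberg over the 45 pairs). This was the pair of exporters Abcc2 and Abcc3, with Pearson r = 0.78 (permutation p = 0.00017, adjusted p = 0.00765) and Spearman rho = 0.719 (permutation p = 0.0005, adjusted p = 0.0225). Without NC5 and SZ-A5, the 2 mice farthest from the median of Abcc2, r was 0.647. Within the groups r was 0.814 in NC, 0.726 in HFD mice and 0.92 in SZ-A mice. So Abcc2 and Abcc3, one on the bile side and one on the blood side, deviated together although neither was called between groups.

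The next pairs did not pass. Abcb11 and Slco1b2 had r = 0.703 (adjusted permutation p = 0.0776) and r = 0.53 without NC5. Slc10a1 had r = -0.649 with Abcb4 and r = 0.622 with Slco1a4 (both with an adjusted permutation p of 0.0882). Of the neighbours on chromosome 6, Slco1a1 and Slco1b2 had r = 0.563 (adjusted permutation p = 0.0882), with 0.747 within NC, 0.712 within HFD and 0.219 within SZ-A. Slco1a1 and Slco1a4 had r = -0.425 (adjusted permutation p = 0.118), with negative values within NC (-0.948), HFD (-0.395) and SZ-A (-0.693). Of the 45 values 32 were positive, and they ranged from -0.649 to 0.78. The shares of positive values and of passing pairs among all genes tested were not computed. So neither count can be called particular to the transporters. Genes outside the list reached r = 0.953 with Abcc2 (Ubr3) and r = 0.907 with Abcc3 (Fbxo3).

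**Figure D5:**
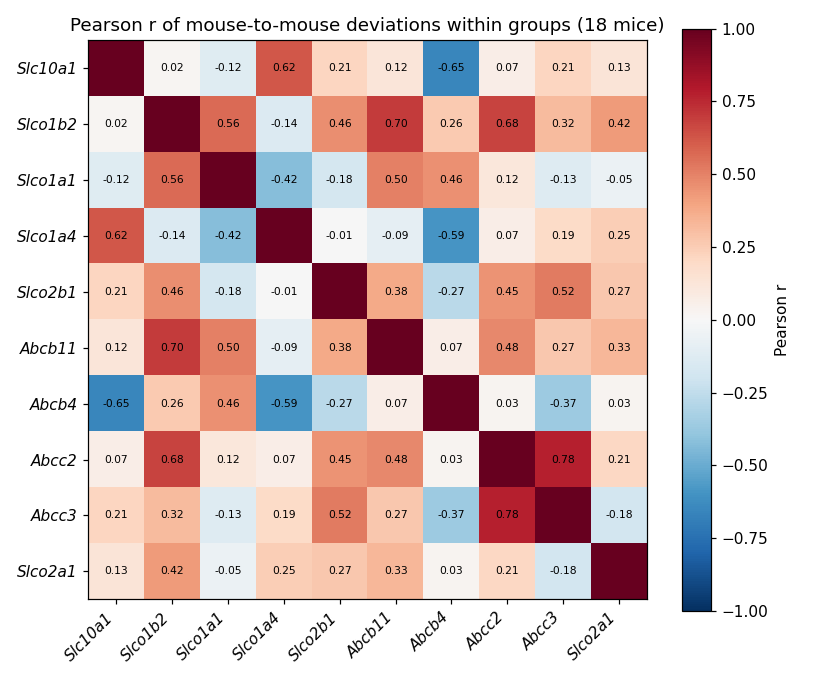
Pearson r between each pair of the 10 transporters over 18 mice, after the group means of log2(FPKM + 0.1) were subtracted, on a colour scale from -1 (blue) to 1 (red). Abcc2 and Abcc3 stand out at 0.78, and the lowest value is -0.65 for Slc10a1 and Abcb4.

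The gene most like each member was looked up by the same deviations over 18 mice among all genes tested other than the members. This is a description, since points of a mouse share a library and its depth. Slco1a1 was most like Hsd3b5, a hydroxysteroid dehydrogenase (r = 0.925, rho = 0.884), and Ugt2b1, a glucuronosyltransferase (r = 0.921, rho = 0.878). Slco1a4 was most like the albumin gene Alb (r = 0.853) and Mpc1, a subunit of the mitochondrial pyruvate carrier (r = 0.841). For Slco1b2 the nearest were Ulk2 (r = 0.921) and Vps54 (r = 0.92), for Abcc2 Ubr3 (r = 0.953) and Mtmr9 (r = 0.95), and for Abcc3 Fbxo3 (r = 0.907) and Tmem220 (r = 0.906). The nearest gene was Ahcyl1 (r = 0.861) for Slc10a1, Rbfox2 (r = 0.849) for Abcb11, Ccdc97 (r = 0.852) for Abcb4 and Eif4g1 (r = 0.861) for Slco2b1. Slco2a1 had the weakest nearest gene, Usp45 (r = 0.795).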

How the data were processed

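Liver RNA of 18 mice was measured. The authors made NEBNext libraries from poly-A RNA, sequenced read pairs on a NovaSeq and deposited 1 table of FPKM per gene. Per the labels, the submitters' processing notes name HISAT2 2.0.5, featureCounts 1.5.0-p3 and the build mm10 (GRCm38). Groups came from sample titles. FPKM times gene length gave whole fragments for 100% of values above 0, within 0.05 of a fragment. The library size behind the FPKM was 0.9325 to 1.1414 times the fragments on genes, so the values already hold a scaling between mice. That scaling went with the groups. The factor was 0.9983 (HFD5) to 1.1414 (HFD1) in HFD mice. It was 0.9325 (NC5) to 1.0248 (NC6) in NC and 0.9718 (SZ-A4) to 1.0468 (SZ-A2) in SZ-A mice. A larger factor gives a lower FPKM, so most HFD values were lowered relative to library totals before any test. For these FPKM, limma on a log scale was the main test, and the whole fragments were tested by voom as an alternative. The authors used DESeq2, which was not run here.

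With limma 3.58.1 (R 4.3.3; lmFit, eBayes with trend), log2(FPKM + 0.1) was fitted for the 10216 genes whose mean FPKM reached 1, each comparison on its own 2 groups with 6 mice each. Fold changes on this scale understate changes of low genes. Pairs were tested in Python 3.11.15. The scripts were tested on simulated data. Replicate numbers were not treated as pairs. Correlations of same-numbered deviations were -0.117 to 0.292, with no differently numbered mice set beside them, so they cannot decide whether the numbers pair the mice. Alternatives were other pseudocounts, filters, scalings, thresholds and fits, voom on fragments, a replicate block, and each mouse left out.

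Members and lists were chosen with earlier results of these data known. All 10 members are named, together with up to 4 called genes of each other list and comparison by smallest p, examples of marker and uncalled genes, and Gm30784. A gene that this rule covers is not reported here. For likeness up to 2 genes per member with the highest r, members themselves left out, are named. Of 10 genes that overlap a member's span, on either strand, the highest value was 1.15 FPKM. Promoters came from RefSeq on GRCm38.p6.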

Additional observations from a re-analysis of the deposited data

Results flagged for a closer look

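In 2 of the 30 sets of 6 values tested (each member in each group), 1 mouse stood apart from the rest, where chance alone gives about 1 in 20. Both were the NC mouse NC5. For Abcc2 NC5 had 25.8 FPKM, with the next NC mouse at 59.1 and the highest at 66.8, a gap of 0.812 of the whole range. For Slco1b2 NC5 had 128 FPKM, with the next at 228 and the highest at 266 (0.728 of the range). Over all genes NC5 was also the mouse farthest from its own group (root mean square log2 distance 0.589). The cause was not tested. The log2 fold changes without NC5 are given beside Abcc2, and Slco1b2 was called between SZ-A and NC in each fit that left out 1 mouse.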

How the results depend on the processing

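Of the values recomputed under an alternative, 684 kept their direction and side of the threshold, 28 lost a call, 21 gained one and 14 turned direction. The transporters called between HFD and NC numbered 4, 3 to 5 without single mice, 6 with all 18 mice in one fit (1 higher, 5 lower), 5 with the common sum and 5 with voom on library totals (2 higher and 3 lower each time), and 2 at a fold change over 2 (Slco1a4 and Slco2a1). With FPKM rescaled by median-ratio factors they numbered 3, and with voom on median-ratio sizes 4, with 0 higher each time. Between SZ-A and HFD they numbered 0, 0 to 0 without single mice, 1 with all 18 mice in one fit, 1 with voom on library totals, 1 with voom on median-ratio sizes (Slco2a1 each time) and 3 with sample weights. Between SZ-A and NC they numbered 4, 3 to 4 without single mice and 1 at a fold change over 2 (Slco1a4). Pairs that varied together numbered 1, 4 with FPKM rescaled to a common sum and 1 to 2 without single mice (2 without NC2, NC6, HFD2 or HFD3). With the replicate number as a block, 4, 0 and 3 transporters were called for HFD against NC, SZ-A against HFD and SZ-A against NC. Whether that number pairs the mice is not known. Slc10a1 (adjusted p = 0.0555) was then lost and Slco1a1 (adjusted p = 0.0364) gained between HFD and NC, and Abcb4 (adjusted p = 0.113) was lost between SZ-A and NC.

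Directions turned for small values that were not called. For HFD against NC, Slco2b1 was -0.0323 with sample weights and -0.0128 to 0.0540 without single mice, and Abcc2 was -0.0395 with weights and -0.0997 to 0.174 without single mice. For SZ-A against HFD, Abcb11 was -0.113 with the common sum and -0.0490 with voom on library totals, and without single mice Slco1a4 was -0.405 to 0.0398 and Abcc2 -0.141 to 0.0595. For SZ-A against NC, Abcc2 was -0.0742 with weights and -0.171 to 0.173 without single mice. The mice whose absence turned the sign were NC5, HFD4 and HFD5 for Slco2b1, SZ-A3 for Slco1a4, and NC5, SZ-A1, SZ-A2 and SZ-A5 for Abcc2. The cause was not tested.

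Rescaling to a common sum moved the median of all genes to 0.15 for HFD against NC, where 2100 genes were then higher and 334 lower in place of 1092 and 970, and to -0.15 for SZ-A against HFD, where 216 genes were called (10 higher, 206 lower) in place of 15. Voom on library totals gave 2010 and 409, and 12 and 56. Voom on median-ratio sizes gave 1204 and 807, and 14 and 17. Under the common sum Slco1b2 and Abcb11 were called higher in HFD than in NC and Slc10a1 was not called, while Slco1a4, Abcb4 and Slco2a1 were called lower. For SZ-A against HFD, all genes called numbered 233 with weights, 35 with all mice in one fit and 0 with the block or with no filter. Each member was read by at least 378 fragments in a mouse. The share of counting error in the spread between mice was not tested.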
